A study of Rattus norvegicus with 20 samples.

Results

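This account concerns the balance between trimethylation and dimethylation of lysine 4 (K4me3 and K4me2) across genes in rat left ventricle. It rests on 4 of the 20 arrays of the study, the K4me3 and K4me2 chromatin immunoprecipitation (ChIP) arrays of a failed and of a normal heart, and every gene with a probe set was followed, 14217 genes in all. The failed heart came from a Dahl rat with congestive heart failure, and the label of its mRNA sample names a high-sodium diet. The normal heart came from a Dahl rat with no such note, and both are given as 19 weeks old. Each heart also had arrays of mRNA, of input DNA set aside ahead of the immunoprecipitation (pre-IP) and of 6 other histone marks, with 1 array per assay and heart and, per the study's design, a single ventricle specimen per experiment. The labels call the mRNA source left ventricular myocytes and do not name the histone that carries the lysine. No mark was measured more than once in the same condition, so the hearts are 2 individuals in different states, not replicates of a state.

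Methyl groups are placed on histone H3 lysine 4 by the SET1 and MLL enzyme complexes and removed by KDM1 and KDM5 demethylases. K4me3 is best known as a mark of the start sites of active genes, while K4me2 spreads more widely around starts, over the first part of genes and at enhancers. The Rat Genome 230 2.0 array carries probes chosen to read transcripts, mostly near their 3′ ends, so what was measured was immunoprecipitated DNA at those probes, wherever they lay relative to a promoter.

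A level below is the deposited intensity after each array was brought to a median of 100, with values under 10 set to 10. A difference is log2 K4me3 minus log2 K4me2 within a heart, in which the pre-IP array of that heart cancels, and the mean difference is the average of both hearts. A gene is called when limma, fitted to all 18 DNA arrays with assay and heart as terms, gave a Benjamini-Hochberg adjusted p under 0.05 over 31042 probe sets. Deposited medians were 372 and 362 on the K4me3 arrays of the failed and the normal heart, against 231 and 268 on the K4me2 arrays. The K4me2 arrays also had the wider spread, with an SD of log2 levels of 1.41 and 1.38 for K4me3 against 1.79 and 1.70 for K4me2. Because of that width, counts, list medians and relations across genes were also computed after quantile normalization, which gives all DNA arrays the same distribution. On the mRNA arrays the 7 measured of 8 cardiac muscle markers had a median percentile of 99.7 in the failed and 99.4 in the normal heart, while 4 liver markers had medians of 19.0 and 25.2. Markers of other heart cells were high as well, although the label names myocytes: 5 fibroblast markers had median percentiles of 99.3 and 98.2, and the 3 measured of 4 endothelial ones 82.2 and 91.5. The part of these cells in the K4 values was not tested, and fewer cells of a type cannot be told apart from less signal per cell.

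The promoters of 5 genes that mark the ends of the K4me3 to K4me2 scale are shown, 250 bases before to 50 bases after the annotated start, from RefSeq on GRCr8, with CG dinucleotides in capitals. H2ax is the histone gene farthest to the K4me2 side, Metrn and Txndc11 are the genes farthest to that side among those called under both normalizations, and Zfp382 and Mcpt1l1 are the farthest to the K4me3 side among those with a promoter in the table. They lie at chr8:53568468-53568767 on the plus strand (H2ax), chr10:15323169-15323468 on the minus strand (Metrn), chr10:5022214-5022513 on the plus strand (Txndc11), chr1:94504844-94505143 on the plus strand (Zfp382) and chr15:33876846-33877145 on the minus strand (Mcpt1l1). The array was designed on transcripts, and probe positions were not used here.
H2ax: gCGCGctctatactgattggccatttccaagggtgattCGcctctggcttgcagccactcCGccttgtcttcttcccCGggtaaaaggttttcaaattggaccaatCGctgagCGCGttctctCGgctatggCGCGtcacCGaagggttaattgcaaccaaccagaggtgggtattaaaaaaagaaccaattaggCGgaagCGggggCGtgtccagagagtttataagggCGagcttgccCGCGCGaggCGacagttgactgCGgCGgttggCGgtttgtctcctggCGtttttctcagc
Metrn: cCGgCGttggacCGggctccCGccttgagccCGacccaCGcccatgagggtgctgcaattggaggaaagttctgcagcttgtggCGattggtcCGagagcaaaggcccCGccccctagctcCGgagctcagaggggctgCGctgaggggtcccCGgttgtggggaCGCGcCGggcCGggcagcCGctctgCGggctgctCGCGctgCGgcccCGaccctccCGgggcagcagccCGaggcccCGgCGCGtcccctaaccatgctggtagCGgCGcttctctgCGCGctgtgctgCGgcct
Txndc11: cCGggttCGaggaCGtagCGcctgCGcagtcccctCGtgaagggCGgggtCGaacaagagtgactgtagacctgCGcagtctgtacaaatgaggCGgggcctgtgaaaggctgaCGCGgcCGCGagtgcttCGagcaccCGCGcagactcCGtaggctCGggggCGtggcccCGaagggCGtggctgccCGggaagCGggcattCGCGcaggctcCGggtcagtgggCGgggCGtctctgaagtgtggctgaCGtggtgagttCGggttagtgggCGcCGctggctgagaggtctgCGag
Zfp382: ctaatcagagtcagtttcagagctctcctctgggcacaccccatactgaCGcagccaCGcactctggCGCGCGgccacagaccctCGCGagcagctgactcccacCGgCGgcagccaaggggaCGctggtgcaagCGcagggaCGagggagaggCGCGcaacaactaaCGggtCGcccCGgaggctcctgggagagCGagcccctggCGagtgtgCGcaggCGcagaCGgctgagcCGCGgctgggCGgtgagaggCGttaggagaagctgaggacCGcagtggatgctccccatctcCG
Mcpt1l1: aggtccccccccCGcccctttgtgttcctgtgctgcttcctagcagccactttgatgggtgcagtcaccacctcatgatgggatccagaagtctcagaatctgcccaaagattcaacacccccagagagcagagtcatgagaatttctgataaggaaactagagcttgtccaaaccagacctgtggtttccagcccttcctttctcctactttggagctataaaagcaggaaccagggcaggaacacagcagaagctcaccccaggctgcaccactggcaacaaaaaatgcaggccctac

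CG dinucleotides numbered 24 in H2ax, 32 in Metrn, 34 in Txndc11, 28 in Zfp382 and 1 in Mcpt1l1. Of all promoters of that length in the table, 35.9% held as many or more than H2ax, 16.4% than Metrn, 13.2% than Txndc11, 25.1% than Zfp382 and 98.8% than Mcpt1l1. Promoters rich and poor in CG thus stood on the K4me3 side, and over 11700 genes the rank correlation of the difference with the CG count was −0.070 in the failed and −0.031 in the normal heart.

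More genes favoured K4me2 than K4me3 at this scaling. K4me3 exceeded K4me2 at 166 called genes (1.17% of the 14217) and K4me2 exceeded K4me3 at 1114 (7.84%). At an unadjusted p under 0.05 the numbers were 894 (6.29%) and 2223 (15.6%), and these 4 shares are the background over all genes for the gene lists. Each of the 1280 called genes had the same sign in both hearts. The call is made on the mean of these same 2 differences, so this largely follows from it. The size of the mean difference ran from 0.90 to 3.38 with a median of 1.65 at genes with more K4me3, and from 0.75 to 4.27 with a median of 1.45 at genes with more K4me2. Of the genes, 7062 are called well measured here, with a mean over the 4 K4 arrays no lower than that of the middle probe set. Among them 47 (0.666%) had at least 2-fold more K4me3 in both hearts and 864 (12.2%) at least 2-fold more K4me2. Calls among them numbered 50 (0.708%) with more K4me3 and 1073 (15.2%) with more K4me2. The median of the mean difference was −0.36 among the well-measured genes, against −0.06 for all genes. For lists made mostly of well-measured genes these shares and this median are the closer background.

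These counts depended on the scaling. With the values as deposited, the median of all genes was 0.50 instead of −0.06, and the calls divided as 1005 with more K4me3 (7.07%) and 296 with more K4me2 (2.08%). After quantile normalization 18 (0.127%) and 6 (0.0422%) were called. Well-measured genes 2-fold apart in both hearts were then 369 (5.23%) and 178 (2.52%) as deposited, and 94 (1.33%) and 76 (1.07%) after quantile normalization. All of the 166 genes and 1037 of the 1114 kept their sign after quantile normalization. As deposited all of them kept it, but that could hardly be otherwise. Away from the floor that scaling shifts every gene equally, by less than the smallest called difference. Fitted on the 4 K4 arrays alone, with or without a term for the heart, no gene was called by limma, although 2833 and 2933 genes had an unadjusted p under 0.05. The calls also depended on single arrays. Without the K4me3 array of the failed heart 5 and 81 genes were called on the K4me3 and the K4me2 side, and without its K4me2 array 61 and 104. Without the K4me3 array of the normal heart 48 and 641 were called, and without its K4me2 array 135 and 870. Of the 88 called genes that the rule for named genes or a later choice picked out, 75 lost the call without the failed K4me3 array, 70 without the failed K4me2 array, 24 without the normal K4me3 array and 19 without the normal K4me2 array. The 12 that kept it whichever of the 4 was left out were Zfp382, F8, LOC102553760, Cyp17a1, Metrn, H2ax, Lmnb2, Jun, Pitx3, Zfp36l2, Acbd4 and Krt1, and a call given below for any other gene rests on at least 1 single array.

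**Figure D1:**
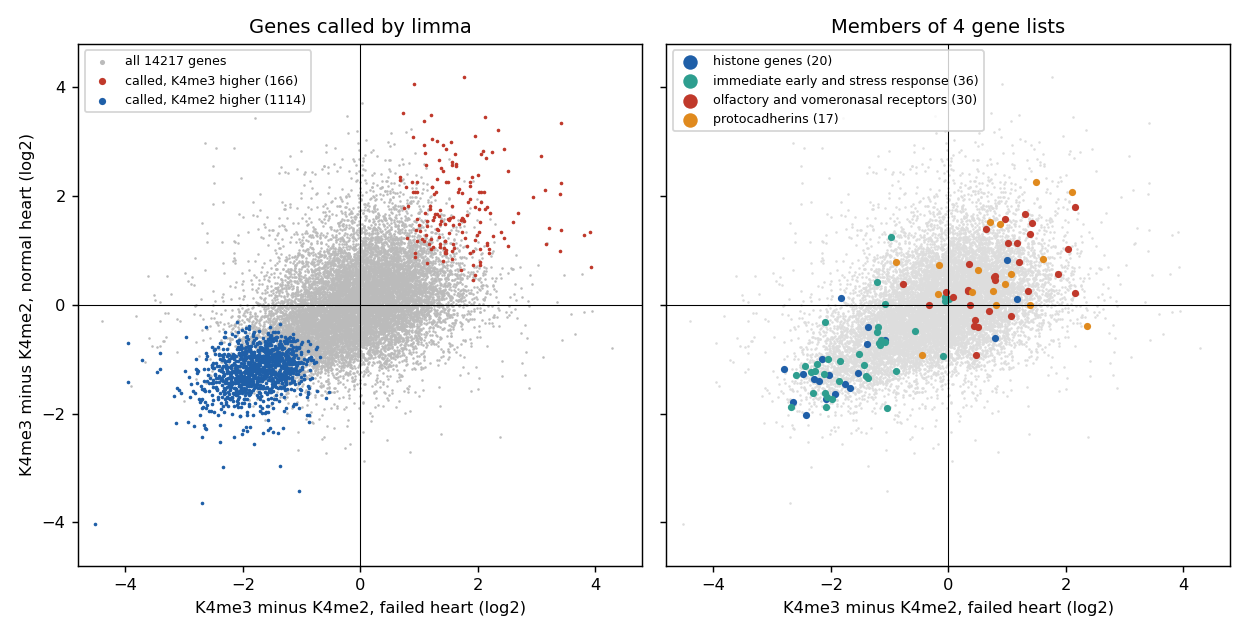
Difference K4me3 minus K4me2 (log2) in the failed heart (x axis) against the normal heart (y axis), 1 point per gene, with called genes coloured at left and the members of 4 gene lists coloured at right. The called genes lie in the upper right (166) and lower left (1114), where a call on the mean of both hearts tends to place them. Histone and immediate early genes gather at lower left.

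The hearts ranked genes alike to a moderate degree, with a rank correlation of the difference of 0.476 across 14217 genes, and of 0.345 after quantile normalization. Genes are not independent, and both values describe a single pair of hearts. The K4me2 enrichment over pre-IP recurred more than the K4me3 enrichment did, with rank correlations between hearts of 0.199 for K4me3 and 0.512 for K4me2. A gene's other probe sets mostly had the sign of the called one: 45 of 57 (78.9%) at genes with more K4me3, against 43.3% above 0 among all such probe sets, and 407 of 489 (83.2%) at genes with more K4me2, against 56.2% below 0.

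Among well-measured genes the far K4me3 end held a zinc finger gene, a kinase and a steroid receptor coactivator. Zfp382, a KRAB zinc finger repressor, had levels of 375 and 356 on the K4me3 arrays of the failed and the normal heart, against 35.6 and 86.9 on the K4me2 arrays. Its mean difference was 2.72 ± 0.37 (SE; adjusted p = 0.00166), and all K4me3 values lay above all K4me2 values. Its mRNA level was at the floor of 10 in both hearts.

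Gak, a kinase that uncoats clathrin vesicles, had levels of 915 and 468 on the K4me3 arrays of the failed and the normal heart, against 143 and 145 on the K4me2 arrays, a mean difference of 2.19 ± 0.38 (SE; adjusted p = 0.00263). Ncoa2, a coactivator of nuclear receptors, had 289.7 and 250.1 for K4me3 against 109.7 and 45.2 for K4me2, a mean difference of 1.93 ± 0.40 (SE; adjusted p = 0.00609). Prkca, protein kinase C alpha, which lowers contractility in heart muscle, had 318 and 240.0 for K4me3 against 66.3 and 99.5 for K4me2, a mean difference of 1.76 ± 0.36 (SE; adjusted p = 0.00623). In each of these the pairs of arrays did not overlap. The mRNA levels ranged from near the floor for Ncoa2 (13.3 in the failed and 26.8 in the normal heart) to 470 and 391 for Gak. Prkca lay between, with 331 in the failed and 241 in the normal heart. The other 6 of the 10 largest were Ubxn4, Shd, Zfp90, Nhej1, Dffa and Gnpnat1, with mean differences between 1.43 and 1.86.

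At the K4me2 end the 10 largest well-measured genes had mean differences between −2.28 and −2.53. Cldn22, a tight junction claudin encoded by a short gene of 1.03 kb, had levels of 245 and 331 on the K4me3 arrays of the failed and the normal heart, against 1740.0 and 1549 on the K4me2 arrays, a mean difference of −2.53 ± 0.76 (SE; adjusted p = 0.0428). Bcam, a laminin receptor of the cell surface, had 152 and 181 for K4me3 against 955 and 872 for K4me2, a mean difference of −2.46 ± 0.52 (SE; adjusted p = 0.00701). Lmnb2, a lamin of the nuclear envelope, had 465 and 597 for K4me3 against 2449.8 and 2772 for K4me2, a mean difference of −2.31 ± 0.35 (SE; adjusted p = 0.00181). K4me2 levels were several times the array median and above K4me3 in both hearts for all 10, which also held Slc27a3, Ctdsp1, Slc39a2, Exoc3l1, Pola2, Irf2bpl and Fosl1. After quantile normalization all 10 remained negative, and none was called.

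Only 17 genes, singled out after their values were seen, were called under both normalizations. On the K4me2 side were 6 of them. Metrn, the secreted neurotrophic factor meteorin, had 13.7 and 10 for K4me3 against 315 and 163 for K4me2, so its normal K4me3 value is the floor and the difference of −4.27 ± 0.68 (SE; adjusted p = 0.00191) is limited by it. Txndc11 and Hic1 had both K4me3 values at the floor, and Spry2, an inhibitor of receptor tyrosine kinase signalling, had the failed one there. Inka1 and Acbd4 were bright on every array: Inka1 had 1209 and 1552 for K4me3 against 6903 and 4195 for K4me2, a mean difference of −1.97 ± 0.34 (SE; adjusted p = 0.00265) and of −1.71 after quantile normalization. Acbd4 had 1191 and 1753 for K4me3 against 5620.4 and 4925 for K4me2, a mean difference of −1.86 ± 0.26 (SE; adjusted p = 0.00166), and its other probe set had −1.45.

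The 11 genes on the K4me3 side held Zfp382, Gak, Ncoa2 and Prkca, and also F8, coagulation factor VIII. F8 had levels of 199 and 190.3 on the K4me3 arrays of the failed and the normal heart, against 62.8 and 37.8 on the K4me2 arrays, a mean difference of 2.00 ± 0.32 (SE; adjusted p = 0.00202). Its 4 other probe sets all favoured K4me3, with mean differences from 0.78 to 2.15. Dlx1, a homeobox factor of forebrain and limb development, had 505 and 485 for K4me3 against 238 and 213 for K4me2, a mean difference of 1.14 ± 0.27 (SE; adjusted p = 0.0134). The other members were Mcpt1l1, Slc22a6, Cldn16, Zfp146 and LOC102553760, with differences from 0.94 to 2.79. Mcpt1l1, related to mast cell proteases, stood near the array median for K4me3 and near the floor for K4me2 (86.6 and 94.5 for K4me3 against 15.9 and 13 for K4me2).

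**Figure D2:**
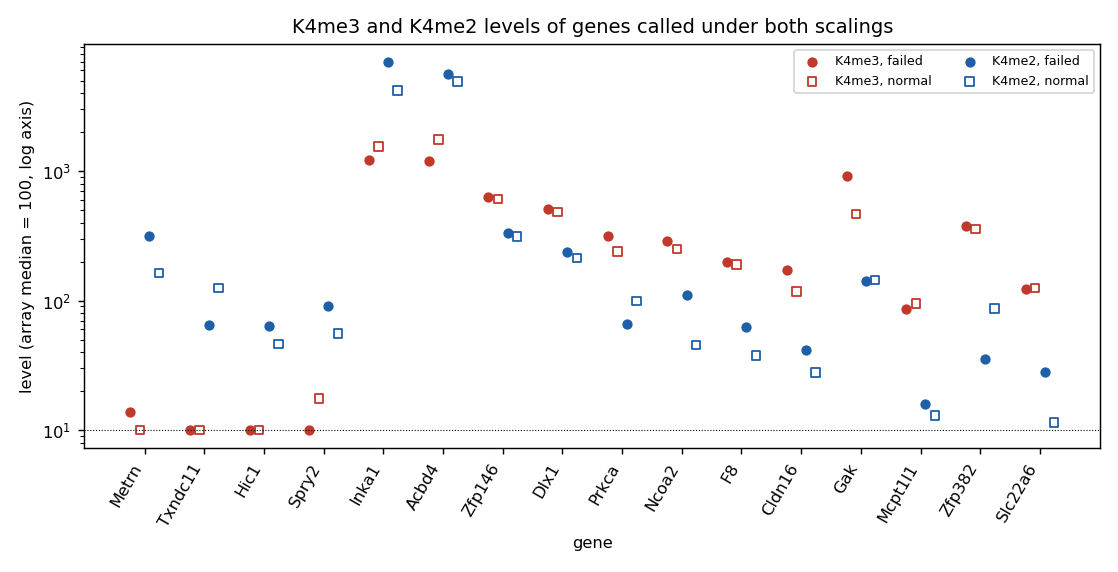
Levels (array median 100, log axis) of 16 named genes called under both normalizations, with K4me3 in red left of K4me2 in blue, filled circles for the failed and open squares for the normal heart; the dotted line is the floor of 10. Metrn, Txndc11, Hic1 and Spry2 have K4me3 values at or near the floor, while the rightmost 10 genes have both K4me3 values above both K4me2 values.

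Histone genes formed the group farthest to the K4me2 side. Of 20 measured, 0 were called with more K4me3 (0 also at an unadjusted limma p under 0.05) and 14 (70%) with more K4me2. The median of their mean differences was −1.60, against −0.06 for all genes and −0.36 for well-measured ones, which 18 of the 20 were. H2ax, the histone variant phosphorylated at DNA breaks, had levels of 578 and 716 on the K4me3 arrays of the failed and the normal heart, against 3106 and 2936 on the K4me2 arrays, a mean difference of −2.23 ± 0.27 (SE; adjusted p = 0.00166). The linker histone gene H1f4 had 843 and 1027 for K4me3 against 3433 and 2526 for K4me2, a mean difference of −1.66 ± 0.28 (SE; adjusted p = 0.00226). H2aj, an H2A variant, had 1143 and 972 for K4me3 against 3305 and 2311 for K4me2, a mean difference of −1.39 ± 0.24 (SE; adjusted p = 0.00267). In all 3 the K4me2 arrays of both hearts lay above both K4me3 arrays.

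K4me2 carried the difference: over pre-IP the histone genes had median enrichments of −0.10 and 0.57 for K4me3 and of 1.86 and 1.70 for K4me2 in the failed and the normal heart. The members with a mean difference above 0 were H2ap, at 0.63 ± 0.55 (SE; adjusted p = 0.545), and both macroH2A genes, which encode the variant with a large non-histone domain. Macroh2a1 had 183 and 124 for K4me3 against 91.8 and 69.9 for K4me2, a mean difference of 0.91 ± 0.44 (SE; adjusted p = 0.223), and Macroh2a2 one of 0.09 ± 0.78. The other probe set of Macroh2a1 had −0.26 and that of Macroh2a2 0.17. Histone mRNA was low in several called members, with H2bc8 at the floor in both hearts, while H1f2 had 3353 in the failed and 1794 in the normal heart. The median stayed negative under quantile normalization (−0.51) and as deposited (−1.04). Without the failed K4me3 array 1 histone gene was called, without the failed K4me2 array 2, without the normal K4me3 array 11 and without the normal K4me2 array 13, with medians from −1.39 to −1.78. Replication-dependent histone genes are near-identical copies, so a probe set may read several of them.

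Immediate early and stress response genes, the transcription factors and feedback regulators that cells induce within minutes of a stimulus, stood next. Of 36 measured, 0 were called with more K4me3 (0 also at an unadjusted limma p under 0.05) and 19 (52.8%) with more K4me2. The median mean difference was −1.31, and 30 lay below 0 in both hearts against 1 above. Jun, a subunit of the AP-1 factor, had levels of 262 and 368 on the K4me3 arrays of the failed and the normal heart, against 1124 and 1139 on the K4me2 arrays. Its mean difference was −1.87 ± 0.27 (SE; adjusted p = 0.00166), the K4me2 values exceeded the K4me3 values without overlap, and its other probe sets had −1.38 to −0.96. Fosl1, another AP-1 subunit, had 207 and 317 for K4me3 against 1332 and 1159.8 for K4me2, a mean difference of −2.28 ± 0.46 (SE; adjusted p = 0.00586).

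Maff, a small Maf factor, had 112 and 94 for K4me3 against 476 and 344 for K4me2, a mean difference of −1.98 ± 0.38 (SE; adjusted p = 0.00458). Egr1, a zinc finger factor of the growth response, had 207 and 191 for K4me3 against 548 and 471 for K4me2, a mean difference of −1.35 ± 0.29 (SE; adjusted p = 0.00762). Ier3, a stress-induced survival factor, had 923 and 1515 for K4me3 against 3821 and 3014 for K4me2, a mean difference of −1.52 ± 0.39 (SE; adjusted p = 0.019). Fos (−1.27 ± 0.42, adjusted p = 0.0624) and Myc (−0.88 ± 0.31, adjusted p = 0.0868) were not called, and the other probe set of Fos had 0.10. Egr2 and Egr4, relatives of Egr1, had mean differences of 0.05 each, and their other probe sets had −0.18 and −0.27.

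The mRNA of these genes ranged widely, from the floor for Socs3, which restrains cytokine receptors, to 13368 in the failed and 10441 in the normal heart for Jund, an AP-1 subunit. Socs3 was nevertheless called, at −1.94 ± 0.37 (SE; adjusted p = 0.00439), with K4me2 the higher state in both hearts. The list's median was −0.48 after quantile normalization and −0.75 as deposited, so its sign did not turn. Calls numbered 2 without the failed K4me3 array, 1 without the failed K4me2 array, 14 without the normal K4me3 array and 16 without the normal K4me2 array, with medians from −1.12 to −1.58.

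Lists of housekeeping genes differed among themselves and with the scaling. Respiratory chain and ATP synthase genes had 1 of 80 called with more K4me3 and 11 with more K4me2, with a median of −0.60 that was 0.12 after quantile normalization and −0.04 as deposited, where all genes had 0.50. Cytosolic ribosomal protein genes had 1 and 8 of 47 called, with a median of −0.64 that was 0.32 after quantile normalization and −0.08 as deposited. Most genes of both lists were well measured (74 of 80 and 46 of 47), and all well-measured genes had a median of −0.36 at the main scaling. The shares called with more K4me2, 13.8% and 17%, were near the 15.2% of well-measured genes. Without either failed K4 array no gene of these lists was called. The call with more K4me3 was Rpl39l1, a copy of Rpl39, at 1.31 ± 0.33 (SE; adjusted p = 0.0173). These are bright, short genes with processed copies elsewhere in the genome, which the probes may also read. Rpl19 and Rpl21, with Eno1, Elob, Eloc, Spetex2l1 and Spetex2l2, were the 7 genes called only after quantile normalization, all with more K4me3. Rpl19 had nearly equal levels at the main scaling (1809 and 2399 for K4me3 against 2143 and 1754 for K4me2), where its mean difference was 0.10, against 1.59 after quantile normalization.

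Mitochondrial ribosomal protein genes had 0 and 9 of 73 called (4 and 20 at an unadjusted limma p under 0.05), with a median of −0.27 that was −0.07 after quantile normalization and 0.29 as deposited. Mrps34, a protein of the small subunit, had 704 and 1063 for K4me3 against 4010.4 and 3022 for K4me2, a mean difference of −2.01 ± 0.42 (SE; adjusted p = 0.00672). Heat shock and chaperone genes had 0 and 12 of 72 called (6 and 17 unadjusted), with a median of −0.26 that was −0.11 after quantile normalization and 0.26 as deposited. Dnajc30 (−1.99) and Dnajc17 (−1.69), members of the DNAJ co-chaperone family, were the farthest among these. The shares of these lists called with more K4me2, 12.3% and 16.7%, were near the 15.2% of well-measured genes. Of their genes 57 of 73 and 50 of 72 were well measured, and all well-measured genes had a median of −0.36. Across these lists at most 1 call was left without either failed K4 array. Glycolysis genes had 0 and 3 of 18 called (0 and 5 unadjusted), among them Gpi at −1.88 and Tpi1 at −1.38. Their 16.7% with more K4me2 was also near that 15.2%, and 14 of the 18 were well measured. Other lists of the kind had few calls on the K4me2 side. Fatty acid oxidation genes had 1 and 0 of 24 called (5 and 2 unadjusted) with a median of 0.19, and translation initiation factors 0 and 1 of 38 (2 and 3 unadjusted) with a median of −0.11. All genes had 1.17% and 7.84% called. Without either K4me3 array neither list had a call.

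The lists with the highest medians were olfactory and vomeronasal receptors and protocadherins. Olfactory and vomeronasal receptors, which detect odours and pheromones in the nose, had 3 of 30 called with more K4me3 (10%) and 0 with more K4me2, or 10 and 0 at an unadjusted limma p under 0.05, against 1.17% and 7.84% of all genes called and 6.29% and 15.6% unadjusted. Their median was 0.63, 20 lay above 0 in both hearts and none below, and the median stayed positive after quantile normalization (0.61). As deposited it was 1.21, where all genes had 0.50. Vom2r75 had levels of 128 and 128 on the K4me3 arrays of the failed and the normal heart, against 28.7 and 36.7 on the K4me2 arrays, a mean difference of 1.98 ± 0.39 (SE; adjusted p = 0.00523), with K4me3 above K4me2 in both hearts. Their K4me3 enrichment over pre-IP was −0.17 in the failed and −0.18 in the normal heart, against −0.94 and −0.67 for K4me2, so it was the K4me2 arrays that were low. Of the 30, 4 passed the level filter, and Or13p4 was the highest of these at 1.15 ± 0.40 (adjusted p = 0.0831). Of all 1114 genes called with more K4me2, 1073 passed that filter, so such calls were rare among dim genes of any kind.

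Protocadherins, adhesion molecules best known from neurons, had 2 of 17 called with more K4me3 (11.8%) and 0 with more K4me2, or 4 and 0 unadjusted. The median was 0.67, and 0.49 after quantile normalization and 1.38 as deposited, where all genes had 0.50. Pcdh8 had 81.1 and 105 for K4me3 against 28.7 and 22.1 for K4me2, a mean difference of 1.88 ± 0.41 (SE; adjusted p = 0.00859). Pcdhb6 had both K4me2 values at the floor, which limits its difference of 2.10 ± 0.63. No protocadherin passed the level filter, so the whole family was dim on these arrays, where calls with more K4me2 were rare. Without either failed K4 array no gene of these 2 families was called, and without the normal K4me3 array 1 receptor and 0 protocadherins were. Their medians stayed between 0.47 and 0.92 whichever array was left out.

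Zinc finger genes were called in either direction. Of 227 measured, 13 (5.73%) were called with more K4me3 and 12 (5.29%) with more K4me2, against 1.17% and 7.84% of all genes, and the median of 0.19 was 0.20 after quantile normalization. Beside Zfp382, Zfp90 had 255 and 214 for K4me3 against 62 and 74.7 for K4me2, a mean difference of 1.78 ± 0.36 (SE; adjusted p = 0.00602), and its other probe set had 1.89. At the opposite end Zfp36l2, which promotes decay of AU-rich mRNAs, had 678 and 691 for K4me3 against 3643 and 2237 for K4me2, a mean difference of −2.06 ± 0.29 (SE; adjusted p = 0.00166). Homeobox, Pax and Sox factors, regulators of embryonic pattern, had 5 and 6 of 94 called (5.32% and 6.38%) and a median of 0.29. Their calls were 0 and 1 without either failed K4 array, 0 and 3 without the normal K4me3 array, and 1 and 4, with a median of 0.02, without the normal K4me2 array. Pitx3 (−2.11) and Sox4 (−1.88) were called with more K4me2, while at the other end Neurog1 was called at 1.34 ± 0.42 (SE; adjusted p = 0.0496) and Hoxa9 had 1.14 and did not pass (adjusted p = 0.0905). Calls of the zinc finger list numbered 2 and 1 without the failed K4me3 array, 6 and 3 without the failed K4me2 array, 4 and 8 without the normal K4me3 array and 7 and 9 without the normal K4me2 array.

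**Figure D3:**
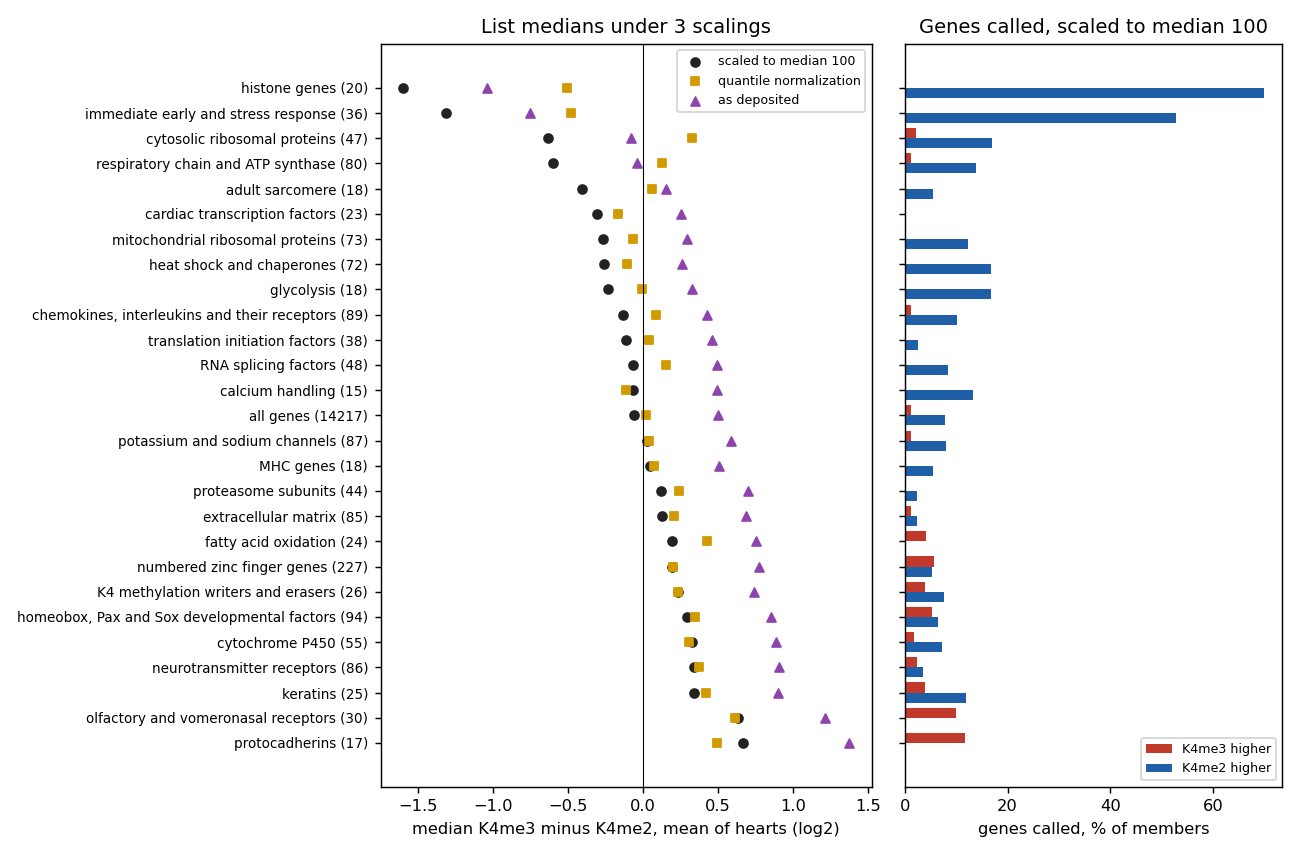
Left, median over list members of the mean difference K4me3 minus K4me2 (log2, x axis) for 26 gene lists and all genes, under 3 scalings; right, percentage of members called in each direction at the main scaling; numbers of members in brackets. Histone and immediate early genes lie below 0 and olfactory receptors and protocadherins above 0 under each scaling, while cytosolic ribosomal protein and respiratory chain genes change side. As deposited the median of all genes is itself 0.50.

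Genes of the contractile and calcium machinery of heart muscle had few calls, all with more K4me2. That side held 7.84% of all genes and 15.2% of well-measured ones. Of these muscle genes, 15 of 18 sarcomere and 11 of 15 calcium handling genes were well measured. Of 18 adult sarcomere genes 1 (5.56%) was called: Tnnc1, the calcium sensor of the thin filament, had 288 and 669.9 for K4me3 against 972 and 1304 for K4me2, a mean difference of −1.36 ± 0.39 (SE; adjusted p = 0.0336). Myh7, the slow myosin heavy chain, had 63.3 and 234 for K4me3 against 120.0 and 1007 for K4me2, and its difference of −1.51 ± 0.72 did not pass (adjusted p = 0.214). Both of its normal-heart values were more than 3 times the failed-heart values, and the groups overlapped. Myh6, the fast myosin heavy chain, had the other sign, 0.37 ± 0.82, and Ttn, the giant elastic protein, had 0.67 ± 0.36, neither of them called. The other probe set of Myh7 had −0.49 and that of Myh6 −0.73, so the sign for Myh6 depended on the probe set.

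Tnnt2 (0.02), Acta1 (−0.03) and Ryr2 (−0.06), for a troponin, skeletal actin and the calcium release channel, had means near 0 with opposite signs in the hearts. Tnnt2 had −0.64 in the failed and 0.68 in the normal heart, Acta1 −0.37 in the failed and 0.30 in the normal heart and Ryr2 0.32 in the failed and −0.43 in the normal heart. The other probe set of Tnnt2 had a mean difference of −1.18. The natriuretic peptide genes had values of −0.73 ± 0.41 (Nppa) and −0.82 ± 0.36 (Nppb), with adjusted p = 0.303 and 0.171. Of 15 calcium handling genes 2 (13.3%) were called with more K4me2: Slc8a1, the sodium-calcium exchanger, at −1.46 ± 0.41 (SE; adjusted p = 0.0321) and Sln, the inhibitor sarcolipin, at −1.19 ± 0.35 (SE; adjusted p = 0.0409). Pln, the related inhibitor phospholamban, missed the threshold at −0.89 ± 0.30 (adjusted p = 0.0688), and Atp2a2, the calcium pump that both inhibit, had 0.47 ± 0.44.

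Of 23 cardiac transcription factors 0 were called by limma in either direction, against 1.17% and 7.84% of all genes. At an unadjusted p under 0.05 there were 0 and 5 (21.7%) on the K4me3 and the K4me2 side, against 6.29% and 15.6% of all genes. Without the normal K4me2 array 2 were called with more K4me2. Nkx2-5, which drives early heart formation, had 84.6 and 74.3 for K4me3 against 200.1 and 296 for K4me2, a mean difference of −1.62 ± 0.51 (adjusted p = 0.0551). The pairs of arrays did not overlap, and the value was −1.36 after quantile normalization. Mef2a (−1.43) and Hand2 (−1.19) were also negative without passing, while Gata4 (−0.38), Tbx5 (−0.31) and Mef2c (−0.39) lay closer to 0. The other probe set of Gata4 had −1.45, that of Hand2 −1.24 and that of Mef2c −0.33, and those of Mef2a had −0.95 to −0.27. The list's median was −0.31, against −0.06 for all genes and −0.36 for well-measured ones, which 14 of the 23 were. As deposited it was 0.25, where all genes had 0.50.

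Of 26 enzymes and subunits of K4 methylation itself, 1 was called with more K4me3 (3.85%, against 1.17% of all genes) and 2 with more K4me2 (7.69%, against 7.84%). Kmt2d, the MLL4 methyltransferase of enhancers, had levels of 212 and 232 on the K4me3 arrays of the failed and the normal heart, against 716 and 615 on the K4me2 arrays, a mean difference of −1.58 ± 0.40 (SE; adjusted p = 0.018), and its other probe set had −0.73. Men1, the menin subunit of MLL complexes, had 297 and 479 for K4me3 against 1107 and 822 for K4me2, a mean difference of −1.34 ± 0.33 (SE; adjusted p = 0.0154). Kdm1b, a demethylase of K4me2, had 91 and 48.6 for K4me3 against 16.8 and 20.8 for K4me2, a mean difference of 1.83 ± 0.45 (SE; adjusted p = 0.0159). In Kmt2d and Men1 the K4me2 arrays were the higher in both hearts, and in Kdm1b, which is dim on the K4 arrays, the K4me3 arrays. Without either failed K4 array none of the 26 was called. Wdr5, the subunit that binds the H3 tail, had 1.04 ± 0.38 and was not called (adjusted p = 0.0967).

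Set against pre-IP DNA, the departures lay mostly in K4me2. limma called 0 genes with K4me3 above pre-IP and 5 (0.0352%) below it, with 1381 genes at an unadjusted p under 0.05, and 0 in either direction after quantile normalization, with 1481. K4me2 was called above pre-IP at 1565 genes (11%) and below it at 397 (2.79%), and at 107 (0.753%) and 123 (0.865%) after quantile normalization. At 126 of the 166 genes with more K4me3, and 1041 of the 1114 with more K4me2, K4me2 was the state farther from pre-IP. These counts are at the main scaling, and the share over all genes is not given. K4me2 over pre-IP was the wider measure at all genes. Its SDs in the failed and the normal heart were 0.95 and 1.07, against 0.74 and 0.80 for K4me3. The part of this width in the counts was not tested.

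The other marks followed this division, though the pre-IP arrays are shared among these enrichments. At genes with more K4me2 the median H3 acetylation over pre-IP was 0.89 and 1.10 in the failed and the normal heart and H4 acetylation 0.64 and 0.81, against 0.04 and 0.05, and 0.01 and 0.06, for all genes. K9me2 was −0.97 and −0.89 there, and K9me3 −0.96 and −0.58. At genes with more K4me3 the signs were opposite: H3 acetylation was −0.47 and −0.76, H4 acetylation −1.01 and −0.95, and K9me3 0.69 and 0.40. These medians were taken at the main scaling only. Across all genes the rank correlation of the difference with H4 acetylation was −0.440 and −0.366, and −0.307 and −0.251 after quantile normalization. With H3 acetylation it was −0.267 and −0.400, and −0.091 and −0.267 after quantile normalization. The acetylation arrays were wide like those of K4me2, with SDs of log2 levels from 1.67 to 1.79, and the part of this width was not tested. In the source field of its label the normal H4 acetylation array is given as pre-IP genomic DNA, while its title and protocol name acetylated H4.

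K4me2 also dominated at bright probe sets. In the 10 groups of genes by pre-IP level, the brightest had a median difference of −1.14 in the failed and −0.57 in the normal heart, the dimmest 0.00 and 0.03. After quantile normalization the brightest had 0.00 and 0.07. Called genes with more K4me2 had median pre-IP levels of 280.4 and 262, those with more K4me3 had 97.1 and 90.4, and all genes 99.7 and 97.9. Hybridization strength of a probe set and K4me2 excess therefore moved together, and its part in the counts was not tested beyond the quantile values.

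The difference was lowest at short genes. Of the 1105 genes called with more K4me2 and with a span, 428 (38.7%) were under 5 kb, against 13.7% of all genes. By gene span on GRCr8, available for 14161 genes, the median difference over 10 groups from shortest to longest was −0.90, −0.43, −0.22, −0.11, −0.04, −0.02, 0.00, 0.00, 0.02 and 0.08 in the failed heart. In the normal heart the shortest group had −0.50 and the longest 0.01. The shortest group, with a median span of 2.42 kb, stood over pre-IP by 0.13 and 0.30 for K4me3 and by 1.02 and 0.79 for K4me2 in the failed and the normal heart. Of its genes 26.1% were called with more K4me2, against 3.81% of the longest group. Called genes with more K4me2 had a median span of 8.13 kb, those with more K4me3 25.9 kb, and all genes 22.3 kb.

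The trend was present among bright and dim genes, and shallower after quantile normalization. Among genes with pre-IP above its median, the shortest to the longest of 10 groups went through medians of −1.24 to −0.04 in the failed heart and −0.73 to −0.10 in the normal heart. Among those below, the shortest group had −0.23 and −0.08 and the longest 0.14 and 0.09. With quantile normalization the shortest group of all genes had −0.25 and −0.10. Families of short genes lay on either side: the olfactory receptors had a median span of 2.17 kb and the protocadherins 6.11 kb, and both lay on the K4me3 side, while histone genes had 0.78 kb and immediate early genes 3.60 kb.

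**Figure D4:**
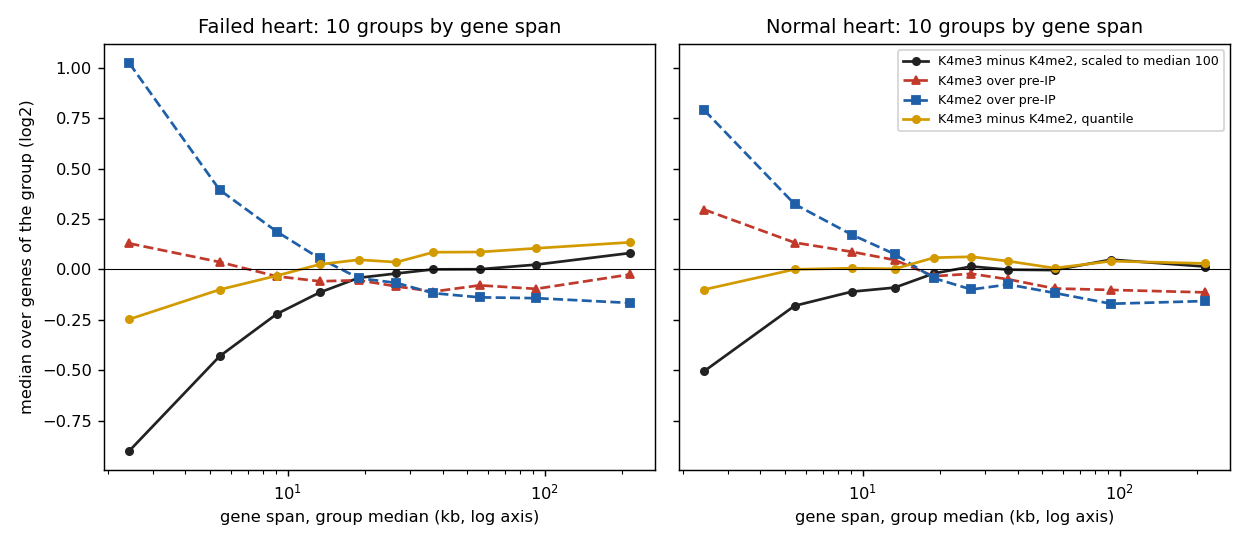
Median difference K4me3 minus K4me2 and median enrichments over pre-IP (log2, y axis) in 10 groups of genes by span (kb, log axis), with the failed heart at left and the normal heart at right. The black line lies lowest, at −0.90 and −0.50, in the shortest group, where K4me2 over pre-IP is highest, and the quantile line is shallower.

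Against the mRNA of the same heart, the difference fell slightly as expression rose. The rank correlation across 14217 genes was −0.110 in the failed and −0.101 in the normal heart, and −0.074 and −0.051 after quantile normalization. Over 10 groups from the least to the most mRNA, medians in the failed heart were 0.12, 0.04, 0.00, −0.15, −0.18, −0.24, −0.22, −0.19, −0.18 and −0.25. The step lay between the groups with median mRNA levels of 61.8 and 103, and little changed above it. In the normal heart the least expressed group had 0.14 and the most expressed −0.18. After quantile normalization the most expressed group had 0.05 and 0.02, so the negative values at high mRNA did not hold under that scaling.

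The mRNA relation was steeper among short genes. Of 1933 genes under 5 kb, the 644 with the least mRNA had medians of −0.16 in the failed and 0.00 in the normal heart. The 645 with the most had −1.20 and −0.68. Between them the K4me2 enrichment differed, at 0.37 and 0.32 for the least expressed and 1.23 and 0.93 for the most, while K4me3 was 0.18 and 0.29, and 0.08 and 0.29. Among 1941 genes over 100 kb the least expressed 647 had 0.20 and 0.11 and the most expressed 647 had 0.00 and −0.06. After quantile normalization the short genes kept the order, with 0.02 and 0.05 for the least and −0.36 and −0.12 for the most expressed.

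Called genes were spread over all mRNA levels. Those with more K4me3 had median mRNA levels of 75.4 and 70.9 in the failed and the normal heart, those with more K4me2 258 and 220.3, and all genes 196 and 179.7. Of the genes with more K4me3, 37.3% and 34.3% lay in the lowest 20% of mRNA, and of those with more K4me2 24.5% and 25% in the highest.

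**Figure D5:**
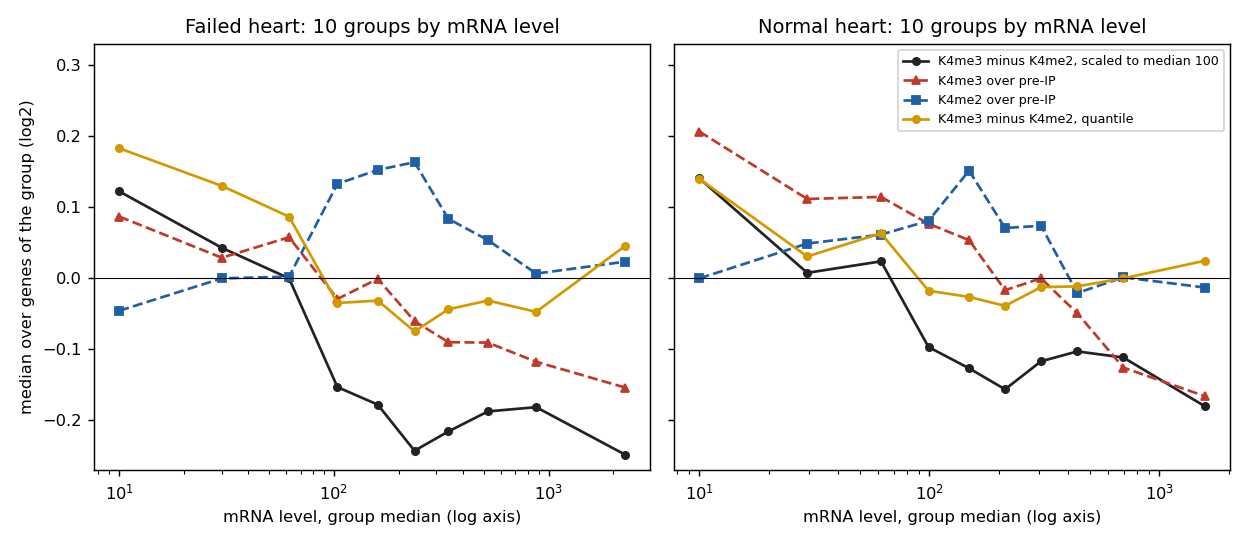
Median difference K4me3 minus K4me2 and median enrichments over pre-IP (log2, y axis) in 10 groups of genes by the mRNA level of the same heart (log axis), failed heart left, normal heart right. The difference lies above 0 in the least expressed group and, at the main scaling, at −0.25 and −0.18 in the most expressed one; the quantile line returns to 0.05 and 0.02 there.

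Within single genes the hearts often differed. The SD over genes of the failed minus normal difference was 0.94, close to the 0.98 and 0.81 of the differences themselves, and 466 and 854 well-measured genes were at least 2-fold apart, with the failed heart higher and lower. Gja4, the connexin 37 gap junction protein of vascular endothelium, had −3.95 in the failed and −0.71 in the normal heart, from levels of 33.4 and 115 for K4me3 against 516 and 188 for K4me2. Npvf, a neuropeptide precursor, had 2.73 in the failed and −0.52 in the normal heart, and Gnrh1, the gonadotropin-releasing hormone gene, 0.75 in the failed and −2.0 in the normal heart. With 1 array per mark and heart, these differences have no replicate check. The rank correlation of the failed minus normal value with that of mRNA was −0.012 across 14217 genes.

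The corresponding comparison at lysine 9 ran another way. K9me3 exceeded K9me2 at 1043 called genes (7.34%) and K9me2 exceeded K9me3 at 453 (3.19%), and its rank correlation with mRNA was positive, 0.256 and 0.315. Tested as a difference of differences in the same limma fit, the K4 value lay above the K9 value at 294 genes (2.07%) and below it at 1223 (8.6%). After quantile normalization the lysine 9 calls were 1358 (9.55%) and 814 (5.73%), and those of the difference of differences 351 (2.47%) and 527 (3.71%). Immediate early genes were the clearest family: 24 of 36 had a K4 value called below the K9 value and 0 above, and their median K9me3 minus K9me2 was 1.0. Of the 20 histone genes 6 were called below, and their median at lysine 9 was −0.25. Zinc finger genes had 43 of 227 called with more K9me3 than K9me2, and a K4 value called above the K9 value in 1 and below it in 9. Homeobox, Pax and Sox factors had 24 of 94 called with more K9me3, and a K4 value called above the K9 value in 1 and below it in 10.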

How the data were processed

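Deposited values were intensities, 1 per probe set and array on a linear scale, for 20 Rat Genome 230 2.0 arrays per the labels. Their 2% trimmed means were equal between arrays as the values show, and the summarising tool was not given in the sources used here. After 57 control probe sets were left out, each of the 31042 others was scaled to an array median of 100, floored at 10 and taken to log2. GEO's platform annotation gave 20826 probe sets 1 gene, 436 several and 9780 none, and of the first 20758 matched RefSeq's table. For each of 14217 genes, the probe set brightest on average on the mRNA arrays stood for it, and 4525 had 2 or more to choose from.

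The 18 DNA arrays were fitted with limma 3.58.1 in R 4.3.3, with assay and heart as terms and a variance trend. The hearts have 1 array per mark, so p-values measure what is left between the hearts after those terms, which may be technical, and the number of arrays limits the precision. The hearts pair the arrays, since both marks came from the same heart, and the heart term takes up that pairing. The fit was tested on simulated data with a known K4me3 minus K4me2 difference. It called 2% of 100 probe sets with a true log2 difference of 1 in size, and 53% of 100 with 2. Of the unchanged probe sets 4 were called. A gene not called may therefore still differ. Python 3.11.15, pandas 2.3.3, numpy 2.4.6, scipy 1.17.1 and matplotlib 3.10.9 were used.

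Named genes were the 10 largest called each way that were 2-fold in both hearts and past the level filter (mean over the 4 K4 arrays at or above the median), a preset of heart and stress genes, the 2 highest and 2 lowest past the filter in each list, and the 3 each way where the hearts differed most. Members and lists were chosen with earlier results of these data known. Other scalings, floors, filters, gene summaries and fits were tried. The values of 1 list are not reported here.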

Additional observations from a re-analysis of the deposited data

Results flagged for a closer look

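In 5 well-measured genes the difference K4me3 minus K4me2 was at least 2-fold one way in the failed heart and at least 2-fold the other way in the normal heart. They were chosen after their values were seen, each value rests on 1 array per mark, and the difference between the hearts was not tested. Bmp15, an oocyte growth factor, had 1.07 in the failed and −1.57 in the normal heart, and its K4me3 levels were 250.04 and 62.9 against K4me2 levels of 119 and 186. Dpep2, a membrane dipeptidase, had −1.25 in the failed and 1.60 in the normal heart. Ing1, a tumour suppressor whose protein reads K4me3, had −1.42 and 1.28, from K4me3 levels of 184 and 266 against K4me2 levels of 492 and 109.7 in the failed and the normal heart. Frmpd1 had −1.02 in the failed and 1.11 in the normal heart. Twf1, an actin-binding twinfilin, had −1.04 in the failed and 1.22 in the normal heart. In the last 4 of these K4me2 was the higher state in the failed heart and K4me3 in the normal heart.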

How the results depend on the processing

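More K4me3 was called at 166 genes and more K4me2 at 1114. These counts were 1005 and 296 with values as deposited, 18 and 6 after quantile normalization, and 0 and 0 on the 4 K4 arrays alone with the replicate block (the pairing by heart) and without it, where 2833 and 2933 genes had an unadjusted limma p under 0.05. Leaving out 1 K4 array gave 5 to 135 genes with more K4me3 and 81 to 870 with more K4me2, the fewest without the K4me3 array of the failed heart. Counts of well-measured genes at least 2-fold apart in both hearts, 47 and 864, were 369 and 178 as deposited and 94 and 76 after quantile normalization. The K4me3 count was 301 with no level filter and 76 with the filter set on pre-IP levels, alternatives chosen after seeing the data. The rank correlation with mRNA, −0.110 in the failed and −0.101 in the normal heart, was −0.074 and −0.051 after quantile normalization and −0.099 and −0.087 with a floor of 50. It was −0.041 and −0.030 among genes past a level filter over the 18 DNA arrays, and −0.057 and −0.042 past one on the K4 arrays. With probe sets averaged it was −0.109 in the normal heart. The agreement of the hearts, 0.476, was 0.345 after quantile normalization and 0.625 past the filter over the 18 DNA arrays. Elob and Rpl21, at −0.02 and 0.00, reached 1.56 and 1.54 after quantile normalization and were called there. Of 181 named genes, 88 were called, and 71 of these lost the call after quantile normalization and 28 as deposited. The cause of these changes was not tested. Values near the floor on either mark have only a bound.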

Other observations

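Several gene groups not described above held single genes that were called with more K4me2. Among potassium and sodium channel genes 1 of 87 was called with more K4me3 (1.15%, against 1.17% of all genes) and 7 with more K4me2 (8.05%, against 7.84%), with a median difference of 0.02. Kcnj11, the pore of the ATP-sensitive potassium channel, had −1.62 ± 0.42 (SE; limma adjusted p = 0.02) and Kcnq5, a voltage-gated channel, −1.96 ± 0.32 (SE; limma adjusted p = 0.0021). Chemokines, interleukins and their receptors had 1 and 9 of 89 called (1.12% and 10.1%, against 1.17% and 7.84% of all genes). Their median of −0.13 was 0.09 after quantile normalization. The lowest were Ccr10 (−2.10) and Il4r (−1.79), both receptors. RNA splicing factors had 0 and 4 of 48 called by limma (1 and 6 at an unadjusted p under 0.05), among them Hnrnpa0 (−1.71) and Srsf2 (−1.31). The 8.33% called with more K4me2 was near the 7.84% of all genes. Their median was −0.07, and 0.15 after quantile normalization.

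Tissue-restricted families had medians above 0 together with calls below it. Cytochrome P450 genes had 1 and 4 of 55 called and a median of 0.33, and Cyp17a1, the androgen-synthesis enzyme, had −1.94 ± 0.27 (SE; limma adjusted p = 0.00166). Keratins had 1 and 3 of 25 called and a median of 0.34, with Krt1 at −1.71. Neurotransmitter receptors had 2 and 3 of 86 called and a median of 0.34, with Gabrr2 at −1.98. In these 3 lists 7.27%, 12% and 3.49% were called with more K4me2, against 7.84% of all genes. With more K4me3 the shares were 1.82%, 4% and 2.33%, against 1.17%. These medians kept their sign after quantile normalization (0.30, 0.42 and 0.38). As deposited they had to stay positive, since the median of all genes rose to 0.50 there. Extracellular matrix genes had 1 and 2 of 85 called and a median of 0.13, with Mmp2, a gelatinase, at −1.41. Proteasome subunits had 0 and 1 of 44 called (3 and 2 unadjusted) and MHC genes 0 and 1 of 18 (0 and 4), with medians of 0.12 and 0.05. The shares of matrix, proteasome and MHC genes called with more K4me2, 2.35%, 2.27% and 5.56%, were below that of all genes. Over these 9 lists there were 7 calls with more K4me3 and 34 with more K4me2, against 0 and 3 without the K4me3 array of the failed heart, 3 and 3 without its K4me2 array, 1 and 20 without the K4me3 array of the normal heart and 5 and 31 without its K4me2 array.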
